A study of Homo sapiens with 24 samples.

Results

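The levels of 10 genes of cytokine feedback and STAT signalling were compared between THP1 macrophages that lacked CD33, had reduced PTPN6, or both, and macrophages with neither change. They are the feedback inhibitors SOCS1, SOCS2, SOCS3 and CISH, the kinase JAK2, the transcription factors STAT3, STAT5A and STAT5B, and the target genes PIM1 and BCL6. The genes were taken by symbol, as 10 of the 60617 gene rows of the count matrix. The rule that picks the rows uses no measured value. However, these genes, and the gene lists used further below, were chosen with earlier results of these data known. Of the 10 genes, 9 were among the 13098 genes that passed the filter on low counts, and SOCS2 was not. THP1 cells come from a human monocytic leukaemia and become attached, macrophage-like cells under PMA, a phorbol ester. CD33, a Siglec, is a surface receptor that dampens myeloid signalling. SHP-1, the tyrosine phosphatase encoded by PTPN6, is recruited by receptors of that kind.

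There were 4 groups. CD33KO_shPTPN6 cells were CD33 knockout and carried a hairpin against PTPN6 (5 libraries). CD33KO_shCTRL cells were CD33 knockout with the empty vector (6 libraries). WT_shPTPN6 cells were wild type for CD33 with the hairpin (6 libraries), and WT_shCTRL cells were wild type with the empty vector (6 libraries). All 4 groups carried a pLKO.1 lentivirus, which was made in HEK-293FT cells, were exposed to it for 24 hours and were selected with 1 µg/ml puromycin. PMA was given to all groups at 10 ng/ml for 48 hours and then left out for 48 hours before harvest. The hairpin is a single sequence, and the labels do not say whether the knockout line is 1 clone. Nor do they say whether replicates were separate cultures, so p-values measure only the spread between these libraries, which may be technical.

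Cytokine receptors without a kinase of their own use JAK kinases, which phosphorylate STAT proteins. The STATs then enter the nucleus and switch on genes, among them SOCS1, SOCS2, SOCS3 and CISH. The SOCS proteins bind the receptor or the JAK, block it, and through their SOCS box bring in a ubiquitin ligase, which closes a negative feedback loop. STAT3 acts below IL-6 family receptors and the IL-10 receptor, and STAT5 below receptors such as that for GM-CSF. In macrophages SOCS1 is known for limiting interferon signalling and SOCS3 for limiting IL-6 signalling through the receptor subunit gp130. SHP-1 is itself known to dephosphorylate JAK kinases. RNA levels do not show phosphorylation.

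Library totals ran from 2024032 to 2581042 counts in CD33KO_shPTPN6, from 2048161 to 3749258 in CD33KO_shCTRL, from 3318001 to 6269304 in WT_shPTPN6 and from 4170191 to 5700712 in WT_shCTRL. One count was worth 0.162 to 0.515 counts-per-million units (CPM), so the shallowest libraries give the least precise values. PTPN6 averaged 7.41 ± 2.75 CPM in CD33KO_shPTPN6 (SD, n = 5) and 37.7 ± 3.88 in CD33KO_shCTRL (SD, n = 6). It averaged 10.6 ± 1.45 CPM in WT_shPTPN6 and 44.6 ± 6.24 in WT_shCTRL (SD, n = 6 each). CD33 averaged 23.5 ± 4.86 CPM in CD33KO_shPTPN6, 20.2 ± 2.45 in CD33KO_shCTRL, 88.8 ± 5.33 in WT_shPTPN6 and 45.5 ± 3.24 in WT_shCTRL. Reads at the 3′ end need not cover the edited part of CD33, so its remaining counts do not measure the edit. All 8 myeloid markers examined were detected in every group. Their summed level was 3130 to 3380 CPM in CD33KO_shPTPN6, 1550 to 1810 in CD33KO_shCTRL, 4020 to 4380 in WT_shPTPN6 and 2740 to 3160 in WT_shCTRL. Summed lymphoid markers (7 genes) lay at 349 to 402, 613 to 702, 168 to 208 and 597 to 733 CPM in the same order of groups, with CD3E at 0 in CD33KO_shPTPN6. TRAC and GNLY carried that sum, while CD3D, CD3E and MS4A1 averaged at most 1.36 CPM in any group. Summed epithelial and HEK-293 markers (7 genes) lay at 90.8 to 112, 105 to 139, 64.1 to 103 and 46.4 to 65 CPM, with EPCAM at 0 in CD33KO_shPTPN6. CDH1 and CDH2 carried most of it, while EPCAM, KRT8, KRT18 and NEFM averaged at most 1.57 CPM in any group. INA added to it in wild-type cells only, with means of 0.343, 0.276, 6.03 and 17.4 CPM in the same order. Summed fibroblast and endothelial markers (7 genes) lay at 36.4 to 94.2, 71.1 to 89.1, 15.7 to 57.8 and 21.4 to 55 CPM, with CDH5 at 0 in CD33KO_shPTPN6. COL1A1, COL1A2 and TIE1 carried it, although TIE1 averaged only 1.87 CPM in WT_shPTPN6. DCN, PDGFRB, VWF and CDH5 averaged at most 3.20 CPM in any group. Ribosomal protein genes held 7.37% to 7.79%, 4.46% to 4.73%, 9.17% to 9.47% and 6.17% to 7.26% of counts in the same order. These shares moved with the groups, and their part in the differences below was not tested.

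Of the 16 promoter windows that RefSeq gives for 9 of the genes, 2 (1 of CISH and 1 of the 2 of BCL6) held the letters TTCNNNGAA, the motif that STAT proteins are known to bind. The motif reads the same on both strands. Over all genes it occurred in 2689 of 35116 such windows (7.66%), each running from 250 bases before to 50 bases after a RefSeq start (GRCh38.p14). The CISH window and the BCL6 window each held 4 matches, and 7 of all windows (0.02%) held 4 or more. The other BCL6 window held 0. The 2 genes are shown because only their windows held a match. STAT5 is known to activate CISH and to repress BCL6, but its part in their changes here was not tested. Each stretch of 30 bases is written 5′ to 3′ on the gene's own strand, which is the minus strand of chromosome 3, with the matches in capitals.
CISH distal pair (chr3:50611991-50612020): ccgttTTCCTGGAAagTTCTTGGAAatctg
CISH proximal pair (chr3:50611876-50611905): ggTTCTAGGAAgacgctgcTTCCGGGAAgg
BCL6 single site (chr3:187745481-187745510): gtccgaagctcaaaTTCCGAGAAttgagct
BCL6 pair at the RefSeq start (chr3:187745447-187745476): tgaTTCTTAGAActggggTTCTTAGAAgtg
The CISH matches began 241, 230, 129 and 112 bases before the RefSeq start of that window. The GENCODE gene begins 57 bases further out, and from there they lay 184, 173, 72 and 55 bases before the start. The BCL6 matches began 28 and 5 bases before the RefSeq start of their window and at positions 11 and 37 after it, counting the start as 1. The GENCODE bounds of BCL6 begin 259 bases further out, so all 4 lie inside the gene as GENCODE gives it, 231 to 295 bases after its start. The CISH distal pair overlaps an exon of MAPKAPK3, which is transcribed from the opposite strand, and both BCL6 stretches overlap exons of BCL6 and of its antisense transcript AC072022.2. A match is a description of the letters, and the other genes' lack of one says nothing of STAT binding there.

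In CD33 knockout macrophages with the empty vector, BCL6, SOCS3, STAT5A, STAT5B and PIM1 were higher and JAK2 was lower than in wild type. Among the 9 tested genes that made 5 higher and 1 lower, where 56.7% of all genes tested were called, 28.3% higher and 28.4% lower (edgeR quasi-likelihood test, adjusted p under 0.05). Groups did not overlap for 4 of the 9, against 34.1% of all genes. The median log2 difference of the 9 was 0.43, against -0.01 over all genes tested. PTPN6 knockdown in wild-type cells left BCL6 higher and SOCS1, CISH, STAT3 and PIM1 lower. That was 1 higher and 4 lower, with 60.6% of all genes called, 30.2% higher and 30.4% lower, and a median of -0.10 against 0 over all genes. Groups did not overlap for 3 of the 9, against 37.4% of all genes. With knockout and knockdown together, set against WT_shCTRL, SOCS3, STAT5A, STAT5B, PIM1 and BCL6 were higher and SOCS1, CISH and STAT3 lower. That was 5 higher and 3 lower, with 63.8% of all genes called, 32.1% higher and 31.7% lower, and a median of 0.35 against -0.000136 over all genes. Groups did not overlap for 3 of the 9, against 45.7% of all genes. All 3 comparisons share the 6 WT_shCTRL libraries. When libraries were scaled by their totals in place of TMM, the median of all genes in the last comparison lay at -0.14 and 37.9% of called genes were higher, against 50.3% with TMM. In bulk RNA, fewer cells of a type and less RNA per cell cannot be told apart.

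**Figure D1:**
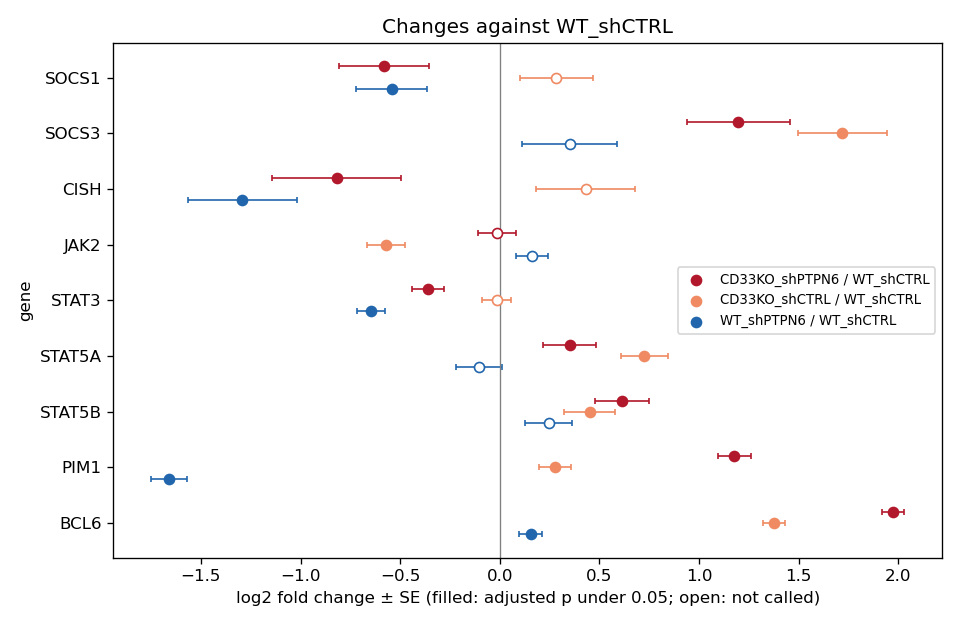
Log2 fold change ± SE of the 9 tested genes against WT_shCTRL, for CD33KO_shPTPN6, CD33KO_shCTRL and WT_shPTPN6; filled points passed an edgeR adjusted p of 0.05 and open points did not. PIM1 stood at 1.18, 0.28 and -1.66, and BCL6 at 1.98, 1.38 and 0.16.

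SOCS1 blocks the kinase activity of JAKs directly. It lay at 5.93, 5.03, 7.63, 6.70 and 6.95 CPM in CD33KO_shPTPN6. In CD33KO_shCTRL it ranged from 7.33 to 14.9 CPM with a median of 13.1. It ranged from 2.71 to 10.1 CPM with a median of 6.71 in WT_shPTPN6, and from 6.76 to 11.4 with a median of 9.94 in WT_shCTRL. The highest CD33KO_shPTPN6 library overlapped the lowest library of either empty-vector group, so the groups were not fully apart. Knockdown lowered SOCS1 in both lines, by a log2 change of -0.87 ± 0.24 in the knockout (SE, edgeR adjusted p = 0.00152) and -0.54 ± 0.18 in wild type (edgeR adjusted p = 0.00634). The difference between these changes, -0.32 ± 0.30, did not pass the test (edgeR adjusted p = 0.466). CD33 knockout gave 0.28 ± 0.18 with the empty vector (edgeR adjusted p = 0.176). Knockout plus knockdown lowered it, with a log2 change of -0.58 ± 0.23 against WT_shCTRL (edgeR adjusted p = 0.0189). That call was lost without CD33KO_shPTPN6 replicate 3 (edgeR adjusted p = 0.0643, and 0.0032 to 0.0643 over all alternatives). SOCS1 (ENSG00000185338, chr16:11254405-11256200, minus strand, hg38) lies within the bounds of RMI2 but shares no exonic base with it.

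SOCS2 (ENSG00000120833, chr12:93569814-93583487, plus strand), known for restraining growth hormone signalling, was near the limit of detection. It lay at 0.988, 0, 0.898, 0 and 0.409 CPM in CD33KO_shPTPN6. It ranged from 0 to 2.93 CPM in CD33KO_shCTRL (median 0.683), from 0 to 0.704 in WT_shPTPN6 (median 0.438) and from 0.225 to 1.25 in WT_shCTRL (median 0.768). Single libraries held 0 to 6 counts, 54 over all 23, and 5 libraries held none. All groups overlapped, and at this depth no difference was detectable: with the filter removed, edgeR adjusted p ran from 0.29 to 1. A count of 0 still allows 3 counts in a library.

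SOCS3, the feedback inhibitor that binds gp130, was higher in the knockout lines. It lay at 7.90, 9.14, 4.49, 9.28 and 8.18 CPM in CD33KO_shPTPN6, where replicate 4 stood below the rest. CD33KO_shCTRL libraries ranged from 7.33 to 14.4 CPM with a median of 11.0. Those of WT_shPTPN6 ranged from 2.46 to 5.50 CPM with a median of 4.62, and those of WT_shCTRL from 2.25 to 5.63 with a median of 3.30. Every CD33KO_shCTRL library lay above every wild-type library, and of CD33KO_shPTPN6 only replicate 4 fell among them. CD33 knockout raised SOCS3 by a log2 change of 1.72 ± 0.22 with the empty vector (edgeR adjusted p = 4.88e-11) and by 0.85 ± 0.25 under knockdown (edgeR adjusted p = 0.00295). Knockout plus knockdown gave 1.20 ± 0.26 against WT_shCTRL (edgeR adjusted p = 2.91e-05). Knockdown did not pass the test in either line, at -0.52 ± 0.24 in the knockout (edgeR adjusted p = 0.0672) and 0.35 ± 0.24 in wild type (edgeR adjusted p = 0.2). The value in the knockout passed with library totals as the scale (edgeR adjusted p = 0.0304), in a fit to the compared groups alone and without CD33KO_shCTRL replicate 1, and its adjusted p ran from 0.0304 to 0.235 over all alternatives. SOCS3 (ENSG00000184557) lies at chr17:78356778-78360077 on the minus strand.

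CISH, the SOCS family member that competes with STAT5 for receptor docking sites, was low in both knockdown groups. It lay at 2.96, 2.74, 2.24, 1.03 and 3.68 CPM in CD33KO_shPTPN6, against 5.14 to 7.33 in CD33KO_shCTRL (median 6.29). It lay at 0.880 to 2.73 CPM in WT_shPTPN6 (median 1.92), against 3.45 to 6.06 in WT_shCTRL (median 4.66). Within each line the hairpin libraries lay below every empty-vector library. Knockdown lowered CISH by a log2 change of -1.25 ± 0.33 in the knockout (edgeR adjusted p = 0.00126) and -1.29 ± 0.27 in wild type (edgeR adjusted p = 2.22e-05). The difference between the lines was 0.05 ± 0.41 (edgeR adjusted p = 0.954), an interval that leaves room for unequal changes. CD33 knockout with the empty vector gave 0.43 ± 0.25 (edgeR adjusted p = 0.129), and under knockdown 0.48 ± 0.38 (edgeR adjusted p = 0.29). Knockout plus knockdown lowered it, with a log2 change of -0.82 ± 0.32 against WT_shCTRL (edgeR adjusted p = 0.0223). That call was lost without CD33KO_shPTPN6 replicate 4 (edgeR adjusted p = 0.051) or 5 (0.0938), and adjusted p ran from 0.0067 to 0.0938 over all alternatives. CISH (ENSG00000114737, chr3:50606490-50611831, minus strand) shares 218 exonic bases with MAPKAPK3 on the opposite strand, which held 8239 counts against 304 for CISH, and whether reads were counted by strand is not given.

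**Figure D2:**
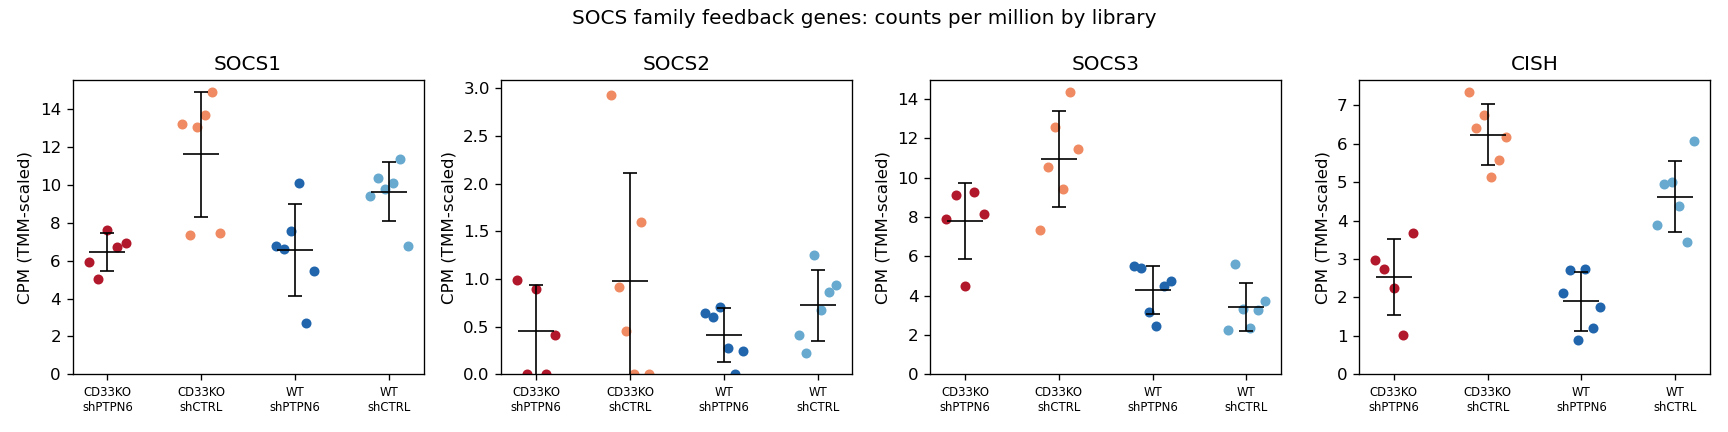
Level of SOCS1, SOCS2, SOCS3 and CISH in CPM (TMM-scaled, linear axis from 0) in each library, by group, with the group mean ± SD as bars, which are cut at 0. CISH was lower in the hairpin group than in the empty-vector group of the same line, and SOCS3 was higher in CD33KO_shCTRL (mean 10.9 CPM) than in WT_shCTRL (3.43 CPM).

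JAK2, the kinase bound to the receptors for GM-CSF, erythropoietin and growth hormone, was lowest in the knockout with the empty vector. It lay at 37.5, 45.2, 48.5, 38.7 and 48.7 CPM in CD33KO_shPTPN6, and ranged from 24.0 to 34.0 in CD33KO_shCTRL with a median of 29.9. In wild-type cells JAK2 ranged from 45.1 to 57.4 CPM in WT_shPTPN6 (median 48.2) and from 38.0 to 47.3 in WT_shCTRL (median 44.9). No CD33KO_shCTRL library reached the lowest library of another group. CD33 knockout lowered JAK2 by a log2 change of -0.57 ± 0.09 with the empty vector (edgeR adjusted p = 1.14e-07). Knockdown raised it by 0.55 ± 0.11 in the knockout (edgeR adjusted p = 1.35e-05), against 0.16 ± 0.08 in wild type, where it did not pass (edgeR adjusted p = 0.0699). The wild-type value passed without any 1 of 6 libraries, with adjusted p of 0.0408 to 0.408 over all alternatives. The knockdown changes differed by 0.39 ± 0.14 (edgeR adjusted p = 0.0196). Knockout plus knockdown left JAK2 at -0.02 ± 0.10 against WT_shCTRL (edgeR adjusted p = 0.895). JAK2 (ENSG00000096968) lies at chr9:4984390-5128183 on the plus strand.

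STAT3, the factor that IL-6 family cytokines and IL-10 activate, was lower in both hairpin groups. It lay at 58.8, 68.1, 64.6, 57.2 and 65.8 CPM in CD33KO_shPTPN6, against 69.7 to 90.8 in CD33KO_shCTRL (median 81.2). It lay at 43.4 to 62.6 CPM in WT_shPTPN6 (median 52.2), against 75.6 to 84.4 in WT_shCTRL (median 81.5). Hairpin and empty-vector libraries of a line did not overlap. Knockdown lowered STAT3 by a log2 change of -0.34 ± 0.09 in the knockout (edgeR adjusted p = 0.000711) and -0.65 ± 0.07 in wild type (edgeR adjusted p = 5.96e-14). The change was smaller in size in the knockout, with a difference of 0.30 ± 0.11 (edgeR adjusted p = 0.035). That call was lost without any 1 of 12 libraries (edgeR adjusted p = 0.0565 to 0.131), and adjusted p ran from 0.0108 to 0.131 over all alternatives. CD33 knockout with the empty vector gave -0.02 ± 0.07 (edgeR adjusted p = 0.867), and knockout plus knockdown gave -0.36 ± 0.08 against WT_shCTRL (edgeR adjusted p = 7.17e-05).

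STAT5A and STAT5B are near-identical proteins that many cytokine receptors activate together. STAT5A lay at 21.2, 21.9, 31.0, 28.9 and 24.9 CPM in CD33KO_shPTPN6, and ranged from 26.8 to 39.4 in CD33KO_shCTRL with a median of 34.2. In wild-type cells STAT5A ranged from 13.7 to 23.6 CPM in WT_shPTPN6 (median 17.7) and from 18.0 to 22.6 in WT_shCTRL (median 19.8). Every CD33KO_shCTRL library lay above every wild-type library, while CD33KO_shPTPN6 overlapped its neighbours. CD33 knockout raised STAT5A by a log2 change of 0.73 ± 0.12 with the empty vector (edgeR adjusted p = 3.99e-08) and 0.45 ± 0.14 under knockdown (edgeR adjusted p = 0.00272). Knockdown lowered it in the knockout, with a log2 change of -0.38 ± 0.13 (edgeR adjusted p = 0.017). That call was lost without CD33KO_shPTPN6 replicate 1 or 3 or CD33KO_shCTRL replicate 4 (edgeR adjusted p = 0.066, 0.0629 and 0.0528), and adjusted p ran from 0.00285 to 0.066 over all alternatives. In wild type it gave -0.10 ± 0.12 (edgeR adjusted p = 0.445). Knockout plus knockdown gave 0.35 ± 0.13 against WT_shCTRL (edgeR adjusted p = 0.0161). It did not pass with library totals as the scale (0.21, edgeR adjusted p = 0.164), without the filter on low counts (0.0557), or without CD33KO_shPTPN6 replicate 4 (0.0946) or 5 (0.052), and adjusted p ran from 0.00857 to 0.164 over all alternatives.

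STAT5B overlapped between all groups. It lay at 30.1, 19.7, 27.8, 23.7 and 29.03 CPM in CD33KO_shPTPN6, from 13.8 to 29.1 in CD33KO_shCTRL (median 24.2), from 18.1 to 22.2 in WT_shPTPN6 (median 20.03) and from 14.4 to 22.5 in WT_shCTRL (median 15.9). The lowest CD33KO_shPTPN6 value, 19.7 CPM, lay within the range of every other group. CD33 knockout raised STAT5B by a log2 change of 0.45 ± 0.13 with the empty vector (edgeR adjusted p = 0.00159) and by 0.37 ± 0.14 under knockdown (edgeR adjusted p = 0.016). The call under knockdown was lost without CD33KO_shPTPN6 replicate 1 (edgeR adjusted p = 0.0632) or 6 (0.0606) or without the filter on low counts (0.103), and adjusted p ran from 0.00466 to 0.103 over all alternatives. Knockout plus knockdown gave 0.61 ± 0.14 against WT_shCTRL (edgeR adjusted p = 4.59e-05). Knockdown gave 0.16 ± 0.14 in the knockout (edgeR adjusted p = 0.38) and 0.25 ± 0.12 in wild type (edgeR adjusted p = 0.0651). The wild-type value passed without any 1 of 5 libraries, with adjusted p of 0.0124 to 0.236 over all alternatives. STAT5B (ENSG00000173757, chr17:42199168-42276707, minus strand), STAT5A (ENSG00000126561, chr17:42287547-42311943, plus strand) and STAT3 (ENSG00000168610, chr17:42313324-42388568, minus strand) are neighbours on chromosome 17. Of all 50-base stretches of the longest STAT5A and STAT5B transcripts, 11.9% and 10.0% occur in the other gene. None of the 551 stretches in the last 600 bases does, which is the end that 3′ libraries read.

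**Figure D3:**
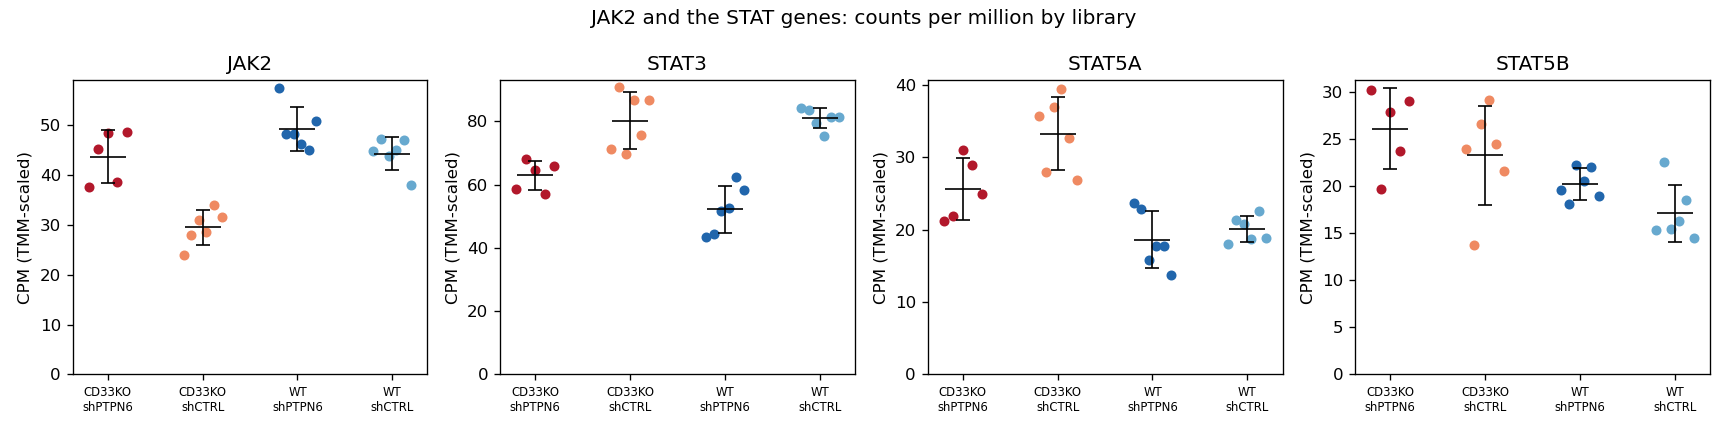
Level of JAK2, STAT3, STAT5A and STAT5B in CPM (TMM-scaled, linear axis from 0) in each library, by group, with the group mean ± SD as bars. JAK2 was lowest in CD33KO_shCTRL (mean 29.6 CPM), and STAT3 was lower in both hairpin groups (62.9 and 52.2 CPM) than in the empty-vector groups (80.2 and 81.0 CPM).

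PIM1 is a serine/threonine kinase gene that STAT3 and STAT5 are known to activate. Among the 9 tested member genes it had the largest log2 difference in any of the comparisons (2.84, for the knockout under knockdown). PIM1 changed in opposite directions with the knockdown in the knockout and in wild type. It lay at 287, 334, 374, 338 and 331 CPM in CD33KO_shPTPN6, against 139 to 201 in CD33KO_shCTRL (median 187). It lay at 39.1 to 55.2 CPM in WT_shPTPN6 (median 45.8), against 126 to 162 in WT_shCTRL (median 151). The hairpin libraries lay above every empty-vector library in the knockout and below every one in wild type. Knockdown raised PIM1 by a log2 change of 0.90 ± 0.08 in the knockout (edgeR adjusted p = 3.35e-10) and lowered it in wild type, with -1.66 ± 0.09 (edgeR adjusted p = 3e-16). The difference of the knockdown changes was 2.56 ± 0.12 (edgeR adjusted p = 1.12e-16). CD33 knockout gave 0.28 ± 0.08 with the empty vector (edgeR adjusted p = 0.00438), where the groups overlapped, and 2.84 ± 0.09 under knockdown (edgeR adjusted p = 8.99e-22), a ratio of 7.16. Knockout plus knockdown gave 1.18 ± 0.08 against WT_shCTRL (edgeR adjusted p = 8.95e-14). PIM1 (ENSG00000137193) lies at chr6:37170203-37175426 on the plus strand.

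BCL6, a transcriptional repressor that restrains inflammatory genes in macrophages, rose with the knockout and again with the knockdown added to it. It lay at 381, 344, 316, 350.5 and 332 CPM in CD33KO_shPTPN6, against 219 to 246 in CD33KO_shCTRL (median 226). It lay at 89.2 to 106 CPM in WT_shPTPN6 (median 98.6), against 82.8 to 92.0 in WT_shCTRL (median 87.6). Neither knockout group overlapped any other group, and the wild-type groups overlapped each other. CD33 knockout raised BCL6 by a log2 change of 1.38 ± 0.05 with the empty vector (edgeR adjusted p = 2.13e-44) and 1.82 ± 0.06 under knockdown (edgeR adjusted p = 2.84e-54). Knockdown raised it by 0.60 ± 0.05 in the knockout (edgeR adjusted p = 1.48e-17) and 0.16 ± 0.06 in wild type (edgeR adjusted p = 0.0129). The wild-type value did not pass with library totals as the scale (0.07, edgeR adjusted p = 0.268), and adjusted p ran from 0.00317 to 0.268 over all alternatives. The knockdown changes differed by 0.44 ± 0.08 (edgeR adjusted p = 2.09e-06), and knockout plus knockdown gave 1.98 ± 0.06 against WT_shCTRL (edgeR adjusted p = 5.37e-58). BCL6 (ENSG00000113916, chr3:187721377-187745727, minus strand) shares exonic bases with antisense transcripts that held 40 counts in all, against 12281 for BCL6.

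**Figure D4:**
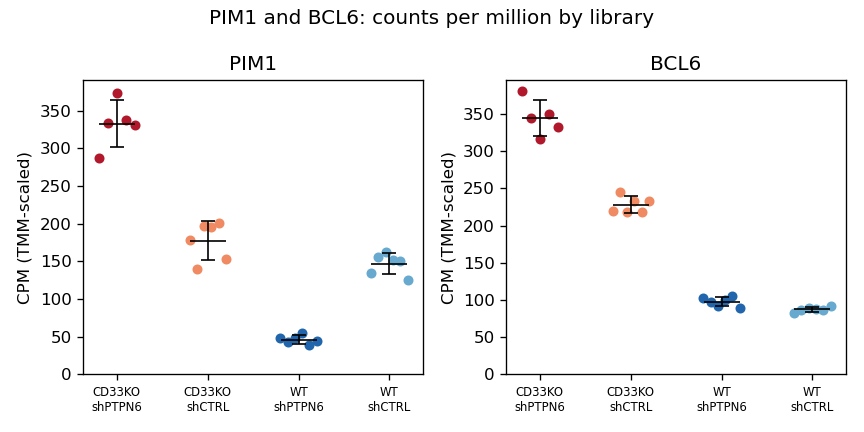
Level of PIM1 and BCL6 in CPM (TMM-scaled, linear axis from 0) in each library, by group, with the group mean ± SD as bars. PIM1 averaged 333 CPM in CD33KO_shPTPN6, 177 in CD33KO_shCTRL, 46.2 in WT_shPTPN6 and 147 in WT_shCTRL; BCL6 averaged 345, 228, 97.7 and 87.6 CPM in the same order.

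The knockdown change differed between the lines for 5 of the 9 genes: PIM1, BCL6, JAK2 and STAT3 had a more positive change in the knockout, and SOCS3 a more negative one. Of all genes tested, 28.4% had a knockdown change that differed between the lines, 14.5% more positive and 13.9% more negative in the knockout (edgeR adjusted p under 0.05). For SOCS3 the difference was -0.87 ± 0.34 (edgeR adjusted p = 0.0408), which was lost without any 1 of 9 libraries (edgeR adjusted p = 0.052 to 0.107) and ran from 0.0116 to 0.107 over all alternatives. With the replicate number as a block it was -0.81 (edgeR adjusted p = 0.0618). For JAK2 it was lost without CD33KO_shPTPN6 replicate 4 or 6 (edgeR adjusted p = 0.0528 and 0.0585, and 0.0105 to 0.0738 over all alternatives). Without the filter on low counts, SOCS3, STAT3 and JAK2 did not pass (edgeR adjusted p = 0.0692, 0.112 and 0.0738), which left PIM1 and BCL6. For STAT5A the difference was -0.27 ± 0.18 and for STAT5B -0.08 ± 0.19, neither past the test (edgeR adjusted p = 0.267 and 0.786). Within the knockout the hairpin made JAK2, PIM1 and BCL6 higher and SOCS1, CISH, STAT3 and STAT5A lower, 3 and 4 of the 9, where 42.1% of all genes were called, 20.5% higher and 21.6% lower. Of the genes called there 48.7% were higher, against 35.6% with library totals as the scale. Groups did not overlap for 5 of the 9, against 24.2% of all genes.

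**Figure D5:**
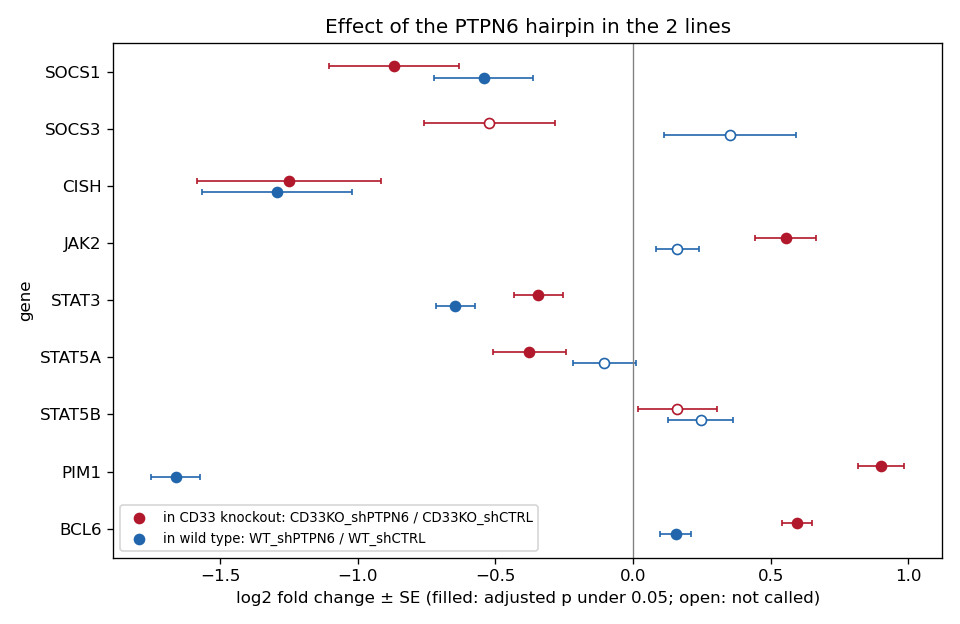
Log2 fold change ± SE of PTPN6 knockdown in the CD33 knockout and in wild type for the 9 tested genes; filled points passed an edgeR adjusted p of 0.05 and open points did not. PIM1 stood at 0.90 in the knockout and -1.66 in wild type, whereas CISH stood at -1.25 and -1.29.

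Under the hairpin, CD33 knockout raised SOCS3, STAT3, STAT5A, STAT5B, PIM1 and BCL6 and lowered none of the 9, where 56.5% of all genes were called, 29% higher and 27.5% lower. Groups did not overlap for PIM1 and BCL6, 2 of the 9, against 37.2% of all genes. For STAT3 the log2 change was 0.29 ± 0.09 (edgeR adjusted p = 0.0034), lost without the filter on low counts (edgeR adjusted p = 0.0542, and 0.000608 to 0.0542 over all alternatives). SOCS1 and JAK2 did not pass there (-0.04 and -0.18, edgeR adjusted p = 0.905 and 0.108), although JAK2 did with library totals as the scale (-0.24, edgeR adjusted p = 0.028, and 0.028 to 0.293 over all alternatives). Set directly against each other, CD33KO_shCTRL had higher SOCS1, SOCS3, CISH, STAT3, STAT5A, PIM1 and BCL6 and lower JAK2 than WT_shPTPN6, 7 and 1 of the 9, where 64.6% of all genes were called, 33.1% higher and 31.4% lower. Groups did not overlap for 7 of the 9, against 41.9% of all genes. The log2 differences in that comparison included 1.72 for CISH (edgeR adjusted p = 1.32e-07) and 1.94 for PIM1 (edgeR adjusted p = 1.35e-17).

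The genes fell into different orders of level. PIM1 ran CD33KO_shPTPN6, CD33KO_shCTRL, WT_shCTRL, WT_shPTPN6 from high to low, and BCL6 ran CD33KO_shPTPN6, CD33KO_shCTRL, WT_shPTPN6, WT_shCTRL; in both, every neighbouring pair passed the test. SOCS1 and CISH each fell into an upper pair of empty-vector groups and a lower pair of hairpin groups, and neighbours within a pair did not pass. SOCS3 fell into an upper pair of knockout groups and a lower pair of wild-type groups in the same way. For STAT3 the empty-vector groups at the top were not told apart by the test, nor for STAT5A the wild-type groups at the bottom. For JAK2 only CD33KO_shCTRL stood apart from its neighbour, and for STAT5B no neighbouring pair did.

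Genes with the most similar pattern of the 4 group means were sought by Euclidean distance between centred log2 CPM values, over 23 libraries. Nearest to PIM1 were EGR3 at 0.532, SLC13A3 at 0.541 and PLAUR at 0.589. The nearest genes to BCL6 were CADM4 at 0.178, SLC9A3-AS1 at 0.185 and GPRC5C at 0.205. For SOCS3 they were NRP2 at 0.131, ROBO1 at 0.198 and TCTN3 at 0.202, and for CISH ITPKB at 0.0936, EXOC5 at 0.111 and DSE at 0.142. SOCS1 lay nearest to CTBP1-DT, GBF1 and TCEAL9 (0.0597 to 0.0752), and JAK2 nearest to EPS8L1, POLR1D and CCDC183 (0.0529 to 0.0787). STAT3 lay nearest to PLEKHF2, NAF1 and CDC42BPA (0.024 to 0.0498), STAT5A to SLC25A15, DTNA and PDE8A (0.0596 to 0.09), and STAT5B to MLST8, DDX41 and MAD2L1BP (0.0246 to 0.0349). A pattern that varies little, as that of STAT5B, is matched more closely by many genes, so distances of different genes are not comparable.

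Among receptors that signal through STAT3 or STAT5, 19 of 26 listed genes were tested. Against WT_shCTRL, 3 were higher and 9 lower in CD33KO_shPTPN6, 3 and 6 in CD33KO_shCTRL, and 7 and 8 in WT_shPTPN6. Of all genes tested, 32.1%, 28.3% and 30.2% were higher and 31.7%, 28.4% and 30.4% lower in the same order. IL6R, the IL-6 binding chain, averaged 57.7 ± 3.41 CPM in CD33KO_shPTPN6, 62.6 ± 6.76 in CD33KO_shCTRL, 99.8 ± 7.88 in WT_shPTPN6 and 149 ± 9.92 in WT_shCTRL, and its log2 change with the knockout was -1.25 (edgeR adjusted p = 1.84e-33). IL10RA, the ligand-binding chain of the IL-10 receptor, averaged 13.7 ± 1.38, 24.5 ± 4.90, 79.7 ± 4.97 and 59.6 ± 4.07 CPM in the same order, with -1.27 in the knockout (edgeR adjusted p = 1.36e-23). OSMR, the oncostatin M receptor, averaged 7.19 ± 2.79, 18.8 ± 2.57, 2.54 ± 1.18 and 21.5 ± 2.03 CPM, with -3.03 under knockdown in wild type (edgeR adjusted p = 1.3e-30). The shared chains gp130 (IL6ST) and the GM-CSF, IL-3 and IL-5 receptor chain (CSF2RB) rose under knockdown in wild type, by 0.95 ± 0.11 and 1.02 ± 0.12 (edgeR adjusted p = 1.12e-13 and 4.72e-13). Both also rose under knockdown in the knockout, by 0.71 and 0.90 (edgeR adjusted p = 3.87e-05 and 5.75e-05). With the knockout and the empty vector, CSF2RB fell (-0.80, edgeR adjusted p = 1.63e-05) and IL6ST did not pass (-0.19, edgeR adjusted p = 0.229). IL21R rose in the knockout by 1.74 ± 0.12 (edgeR adjusted p = 2.53e-25). The median log2 change of the 19 was -0.36, -0.20 and -0.00449 in the 3 comparisons, against about 0 over all genes.

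Of 25 listed ligands only 7 were tested, and they may have passed the filter through the groups where they were high. IL24 did pass through the knockout groups. It reached at most 1.35 CPM in WT_shCTRL and averaged 2.21 in WT_shPTPN6, under the cut of 2.93, which left little room for a fall. The ligand counts are therefore only a description. Set against WT_shCTRL, 5 were higher and 0 lower in CD33KO_shPTPN6, 6 and 0 in CD33KO_shCTRL, and 1 and 1 in WT_shPTPN6. For WT_shPTPN6 it was 0 higher in a fit to the compared groups alone, and 2 lower with library totals or DESeq2. IL24, a cytokine of the IL-10 family, averaged 33.1 ± 4.96 CPM in CD33KO_shPTPN6, 100.5 ± 6.64 in CD33KO_shCTRL, 2.21 ± 0.955 in WT_shPTPN6 and 0.719 ± 0.518 in WT_shCTRL, where 1 library held none. EBI3, a subunit of IL-27 and IL-35, averaged 90.8 ± 7.91, 93.7 ± 31.0, 5.36 ± 1.92 and 8.56 ± 2.04 CPM in the same order. Its log2 change was 3.42 with knockout plus knockdown (edgeR adjusted p = 9.85e-11) and 3.48 with the knockout (edgeR adjusted p = 3.41e-11). Beside the ligand counts, 32.1%, 28.3% and 30.2% of all genes tested were higher and 31.7%, 28.4% and 30.4% lower in those 3 comparisons.

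Of the other JAKs and STATs, 6 of 7 were tested. Against WT_shCTRL, 3 were higher and 2 lower in CD33KO_shPTPN6, 2 and 3 in CD33KO_shCTRL, and 2 and 3 in WT_shPTPN6. Scaled by library totals, only 1 was higher in CD33KO_shPTPN6. Among all genes tested, 32.1%, 28.3% and 30.2% were higher and 31.7%, 28.4% and 30.4% lower in these comparisons. STAT2, a STAT of type I interferon signalling, averaged 50.9 ± 5.77 CPM in CD33KO_shPTPN6, 50.1 ± 7.89 in CD33KO_shCTRL, 37.1 ± 4.61 in WT_shPTPN6 and 80.6 ± 5.33 in WT_shCTRL. TYK2, a kinase of the type I interferon receptor, rose in all 3 comparisons, by log2 changes of 0.54, 0.29 and 0.34 (edgeR, all 3 passed).

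All 15 listed brakes on JAK/STAT signalling outside the member genes were tested. Against WT_shCTRL, 6 were higher and 5 lower in CD33KO_shPTPN6, 5 and 6 in CD33KO_shCTRL, and 5 and 5 in WT_shPTPN6. In WT_shPTPN6 the scaling by library totals left 2 higher, and removal of the filter on low counts left 3 lower. Shares of all genes tested were 32.1%, 28.3% and 30.2% higher and 31.7%, 28.4% and 30.4% lower in these comparisons. SH2B3, the adaptor LNK that restrains JAK2, averaged 110 ± 8.09 CPM in CD33KO_shPTPN6, 54.9 ± 6.88 in CD33KO_shCTRL, 90.6 ± 5.12 in WT_shPTPN6 and 64.6 ± 6.64 in WT_shCTRL. It rose with knockout plus knockdown by 0.78 (edgeR adjusted p = 3.64e-17) and with knockdown in wild type by 0.49 (edgeR adjusted p = 1.76e-10). PTPN1, the phosphatase PTP1B, which dephosphorylates JAK2 and TYK2, rose with the knockout by 0.67 ± 0.05 (edgeR adjusted p = 3.28e-23), and SOCS6 fell by 0.97 ± 0.13 (edgeR adjusted p = 9.61e-11). PTPRC (CD45), another JAK phosphatase, fell with the knockout, with a log2 change of -0.85 ± 0.06 (edgeR adjusted p = 4.01e-23). All 5 genes of the ligase that the SOCS box recruits were tested, with 1 higher and 2 lower in CD33KO_shPTPN6, 0 and 2 in CD33KO_shCTRL, and 3 and 2 in WT_shPTPN6 (1 lower without the filter on low counts). RBX1, a RING protein of that list, fell in all 3, with log2 changes of -0.56, -0.45 and -0.19 (edgeR, all 3 passed). RNF7, another RING protein of the list, rose with knockout plus knockdown by 0.38 (edgeR adjusted p = 1.99e-06). It also rose with knockdown in wild type, by 0.32 (edgeR adjusted p = 3.12e-06), and did not pass with the knockout (-0.13, edgeR adjusted p = 0.106).

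All 23 other listed STAT3 target genes were tested. Against WT_shCTRL, 17 were higher and 4 lower in CD33KO_shPTPN6, 17 and 5 in CD33KO_shCTRL, and 13 and 3 in WT_shPTPN6. Their median log2 change was 0.72, 0.82 and 0.29 in these comparisons, which share the control libraries, against about 0 over all genes. Of all genes tested, 32.1%, 28.3% and 30.2% were higher and 31.7%, 28.4% and 30.4% lower in these comparisons. STAT3 RNA itself was lower in CD33KO_shPTPN6 and WT_shPTPN6 and did not pass in CD33KO_shCTRL. Its part in the changes of the listed targets was not tested. CEBPB, a transcription factor of acute-phase and macrophage genes, averaged 459.7 ± 16.3 CPM in CD33KO_shPTPN6, 349 ± 37.1 in CD33KO_shCTRL, 127 ± 9.40 in WT_shPTPN6 and 62.4 ± 5.15 in WT_shCTRL. It rose in all 3, by 2.88, 2.49 and 1.03 (edgeR adjusted p = 1.06e-67, 5.65e-63 and 1.13e-29). BATF, an AP-1 family factor, averaged 6.10 ± 0.921, 11.9 ± 3.28, 40.2 ± 2.38 and 39.6 ± 3.55 CPM in the same order and fell by 2.69 with knockout plus knockdown (edgeR adjusted p = 1.36e-30) and by 1.76 with the knockout (edgeR adjusted p = 3.85e-25).

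Of 14 other listed STAT5 target genes 11 were tested, some of which also stand among the STAT3 targets. Against WT_shCTRL, 5 were higher and 4 lower in CD33KO_shPTPN6, 5 and 4 in CD33KO_shCTRL, and 4 and 5 in WT_shPTPN6. Median log2 changes of the 11 were 0.22, 0.11 and -0.51. Among all genes tested, 32.1%, 28.3% and 30.2% were higher and 31.7%, 28.4% and 30.4% lower in these comparisons. PIM2, the paralog of PIM1, averaged 176 ± 16.6 CPM in CD33KO_shPTPN6, 115 ± 8.76 in CD33KO_shCTRL, 75.3 ± 6.95 in WT_shPTPN6 and 46.98 ± 2.04 in WT_shCTRL. Under knockdown in wild type PIM2 rose by 0.69 (edgeR adjusted p = 2.32e-16), whereas PIM1 fell there. ID1, an inhibitor of helix-loop-helix factors, averaged 23.0 ± 1.82, 104 ± 7.77, 7.75 ± 1.46 and 54.2 ± 3.12 CPM in the same order, with -2.84 under knockdown in wild type (edgeR adjusted p = 1.92e-47). BCL2, which blocks apoptosis, fell there by 1.33 ± 0.10 (edgeR adjusted p = 3.18e-24).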

How the data were processed

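RNA of 24 labelled samples in 4 groups of 6 was profiled. CD33KO_shPTPN6 replicate 2 has no column in the count matrix, which left 23 libraries. Per the labels' protocols, 100 ng of total RNA per sample went into a QuantSeq 3′ kit, whose reads fall near the ends of polyadenylated transcripts. The authors deposited raw read counts per gene and library, not normalized. Tools named in the submitters' processing notes, without roles, are STAR 2.7.3a, bcl2fastq, Subread 2.0.0 with featureCounts, DESeq2 1.26.0 and R 3.6.1, and the genome build is hg38. Annotation release, strand setting and treatment of duplicates are not given in the sources used here; unstranded counting would add antisense reads to a gene. A symbol was found for 60261 (99.41%) of 60617 identifiers; 34700 were counted in some library. Positions, exons and transcripts came from a GENCODE annotation of the hg38 build, and promoter windows from RefSeq (GRCh38.p14), which has windows for 9 of the 10 genes.

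In R 4.3.3, edgeR 4.0.16 filtered genes by group (2.93 CPM in at least 5 libraries) and scaled libraries by TMM. All libraries entered 1 quasi-likelihood model with 4 group means, and 7 contrasts were tested with Benjamini-Hochberg adjustment over 13098 genes at 0.05. For the interaction, the knockdown change in wild type was subtracted from that in the knockout. Levels are TMM-scaled CPM, mean ± SD. The SE of a log2 fold change is its size over the square root of the F statistic and is approximate. No pair of libraries agreed within sampling noise. The pipeline was tested on simulated data. The genes and lists were chosen with earlier results of these data known. Named are all members, CD33 and PTPN6, and, for each list and each comparison with WT_shCTRL, genes from the up to 2 called per direction with the smallest adjusted p at a mean of 5 CPM or more. For each tested member the 3 nearest genes by group pattern are also named. Alternatives were library totals or DESeq2 size factors as the scale, the DESeq2 1.42.0 test, no filter, fits to only the groups compared, a replicate block, and each library left out; ranges over all alternatives include the DESeq2 adjusted p. Some genes that the rule names are not reported here.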

Additional observations from a re-analysis of the deposited data

Results flagged for a closer look

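Of the 40 combinations of a member gene and a group, 2 held a library far from the rest of its group; chance flags about 1 in 20 groups. SOCS3 in CD33KO_shPTPN6 replicate 4 lay at 4.49 CPM, against 7.90 to 9.28 in the other libraries of that group. Without it, the SOCS3 log2 change of knockout plus knockdown against WT_shCTRL was 1.35, and that of knockdown in the knockout was -0.37. JAK2 in WT_shCTRL replicate 6 lay at 38.0 CPM, against 43.9 to 47.3 in the other libraries. Without it, JAK2 stood at -0.62 with the knockout.

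For 5 genes the knockdown effect in the knockout differed from that in wild type by the test of the difference itself. On the log2 scale, knockout minus wild type, it was 2.56 for PIM1 (edgeR adjusted p = 1.12e-16), 0.44 for BCL6 (edgeR adjusted p = 2.09e-06) and 0.39 for JAK2 (edgeR adjusted p = 0.0196). It was 0.30 for STAT3 (edgeR adjusted p = 0.035) and -0.87 for SOCS3 (edgeR adjusted p = 0.0408).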

How the results depend on the processing

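Of 368 member results under another scale, tool, filter, set of groups or block, 356 kept their side of the threshold, 9 lost the call and 3 gained it. Of 1449 with 1 library left out, 1403 kept it, 33 lost it and 13 gained it. No called value changed sign. The number of the 9 genes whose knockdown effect differed between the lines was 5; it was 2 without the low-count filter, and 2 to 5 with a library left out (2 without CD33KO_shPTPN6 replicate 4). PIM1 and BCL6 kept that call throughout. None of 202 recomputed counts of all called genes moved by over 1.5 times, and 17 of 574 list counts did. Same-numbered libraries did not deviate together: the correlation over 33 pairs ran from -0.05 to 0.03, and 3 of 23 libraries correlated best with their own number. With the replicate number as a block, the SOCS3 interaction was lost (-0.81, edgeR adjusted p = 0.0618), which left 4; no other member call changed. SOCS2, CISH, SOCS1 and SOCS3 rest on few counts in libraries of 2024032 to 6269304 counts, so small differences in them could not be seen.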
